A study of Rattus norvegicus with 10 samples.

Results

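The miRNAs described here are 6 that mark or act in the blood vessel wall: both arms of the endothelial miR-126 (rno-miR-126 and rno-miR-126*), the smooth muscle pair rno-miR-143 and rno-miR-145, and the Hox cluster pair rno-miR-10a-5p and rno-miR-10b. They were found by name among the 679 rat miRNA probes of a miRCURY LNA array, on which each miRNA has 1 probe printed as 4 spots. The tissue was labelled as the medial prefrontal cortex (mPFC) of wild-type Sprague Dawley rats aged 2 months, with 1 array per rat. The 5 morphine rats received intraperitoneal morphine in 2 injections a day for 5 days, at 10, 20, 30, 40 and 40 mg/kg per injection on days 1 to 5, and the 5 saline rats received saline on the same schedule. The label names a tissue of vessels, blood and brain cells together, and what each sample held was not tested. Fewer cells of a type, less RNA per cell and a difference between the groups in the tissue sampled cannot be told apart.

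miR-126 is made from an intron of Egfl7, a gene of endothelial cells, and both arms of its hairpin can be loaded and used. In mouse and zebrafish, miR-126 supports vessel integrity and VEGF signaling by repressing inhibitors of that pathway, among them Spred1. miR-143 and miR-145 come from 1 transcript and are abundant in smooth muscle cells and pericytes, where in mouse they favor the contractile state and repress Klf4. miR-10a and miR-10b lie in the Hoxb and Hoxd clusters, are used in posterior tissues and in endothelium, and differ little in sequence.

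The mature sequences below show where the annotated miRNAs differ, and are not the sequences of the probes. RefSeq (GRCr8) held a mature sequence for 6 of the 6 miRNAs. The array name rno-miR-126 was matched to RefSeq's miR-126a-3p, rno-miR-126* to miR-126a-5p, and the unmarked names of miR-143, miR-145 and miR-10b to the 3p, 5p and 5p arms. Each is printed 5′ to 3′ with its seed, bases 2 to 8, in capitals.
rno-miR-126: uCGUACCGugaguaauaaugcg
rno-miR-126*: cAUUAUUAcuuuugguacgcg
rno-miR-143: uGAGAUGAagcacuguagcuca
rno-miR-145: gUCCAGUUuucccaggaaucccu
rno-miR-10a-5p: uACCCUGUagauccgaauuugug
rno-miR-10b: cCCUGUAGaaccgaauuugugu
None of the 6 annotated seeds was carried by another of the 693 mature rat miRNA names in that table. The miR-10 pair is close in sequence, and the miR-10b entry starts 2 bases further in. Over the 21 bases where the entries overlap, 20 were equal, with the substitution U12A counted from the 5′ end of miR-10a-5p. The annotated seeds of miR-10a-5p and miR-10b therefore differ by where the entries start. The sequences of the probes themselves were not used here, so that how far the miR-10a-5p and miR-10b probes can separate their targets was not tested. In the same annotation the miR-126 gene lies within Egfl7, miR-143 and miR-145 both lie within the non-coding gene Carmn, miR-10b lies within Hoxd4, and miR-10a lies between Hoxb5 and Hoxb4. The array files name no genome build, so no coordinates are given.

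Values are scaled intensities. The background-subtracted brightness of the 4 spots was averaged, and each array was brought to a common median of the 120 rat probes at 30 or more on every array. An intensity below 0 means that the spots were dimmer than the slide around them. For tests the scaled intensity was raised to at least 30 and its log2 taken, and the 301 probes that reached 30 on at least 5 arrays were fitted with limma. Before scaling, 180 to 281 rat miRNA probes reached 30 on the saline arrays and 260 to 419 on the morphine arrays, and the median local background was 84 to 348 and 63 to 141.

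The arrays labelled saline went against the brain label in most of the neuronal miRNAs listed. Of 9 miRNAs of brain neurons, 6 reached 30 on no saline array, among them rno-miR-9 and rno-miR-128, which are abundant in cortex. The others reached it on all 5 saline arrays. Their saline values were 2195 to 4838 for rno-miR-9*, 507 to 1349 for rno-miR-124 and 79.7 to 281 for rno-miR-138. The summed scaled intensity of the 9 was 2967 to 6333 on the saline arrays and 44872 to 144351 on the morphine arrays. All 8 tested members rose in the morphine group. Those that reached 30 on no saline array entered the test through the morphine group. Their passing it adds nothing to their values. For rno-miR-9, which controls the progenitor state of neural cells, the rise was at least 329-fold (limma adjusted p = 9.31e-08). For rno-miR-128, a neuronal miRNA, it was at least 199-fold (adjusted p = 5.56e-07). Such a bound is taken against the lowest scaled intensity at 30 or more on each saline array. Here and below it moves with that limit. Among all 301 probes, 98 (32.6%) passed the test as higher and 35 (11.6%) as lower in the morphine group at an adjusted p under 0.05, and the median log2 fold change was 0.45. The part of this difference between the groups in the results that follow was not tested.

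Both arms of miR-126 rose in the morphine group, from below the local background on every saline array. For rno-miR-126 (probe 4610), the scaled intensity on the saline arrays of replicates 1 to 5 was -42.4, -119, -29.2, -182 and -236. On the morphine arrays it was 655, 48.6, 4408, 852 and 3944. Every morphine array was thus above every saline array, with replicates 3 and 5 high and replicate 2 close to the limit of 30. The group means were -122 ± 88.9 and 1981 ± 2032 (SD, n = 5). The rise was at least 28.0-fold, taken against the lowest scaled intensity at 30 or more on each saline array. The fitted log2 fold change was 4.84 (SE 0.99, limma adjusted p = 0.00178), a value that depends on the floor of 30 and is no bound. The 28.0-fold also rests on the limit of 30 and on the scaling. With a floor of 100 the log2 fold change was 3.31, and after cyclic loess normalization it was 3.04. On each saline array 3 to 7 of the 7 negative control probes were brighter than the miR-126 probe, and on no morphine array was any of them.

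rno-miR-126* (probe 33596), the arm from the other strand of the hairpin, showed the same separation at a lower brightness. Its scaled intensity was -44.0, -127, -29.2, -165 and -254 on the saline arrays and 365, 349, 611, 34.7 and 761 on the morphine arrays. Here morphine replicate 4 was the array close to 30, whereas replicate 2 was well above it. The group means were -124 ± 92.1 and 424 ± 278 (SD, n = 5). The rise was at least 9.45-fold, with a fitted log2 fold change of 3.27 (SE 0.719, limma adjusted p = 0.00295). Both values rest on the limit of 30, and with a floor of 100 the log2 fold change was 1.84.

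Groups that did not overlap with morphine higher were found for 64 of the 301 tested probes (21.3%), so that the separation of both miR-126 arms was shared with many other probes. Ranked by p over the 301 probes, rno-miR-126 was 49th and rno-miR-126* 55th. Both arms reached 30 on the morphine arrays alone and entered the test through that group, so that their passing it adds nothing to their values. For the same reason neither was tested when all 10 arrays had to reach 30. By the methods' t-test on the floored values without log2, the adjusted p was 0.139 for rno-miR-126 and 0.0827 for rno-miR-126*. After cyclic loess normalization rno-miR-126* did not pass (log2 fold change 1.84, adjusted p = 0.0758).

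**Figure D1:**
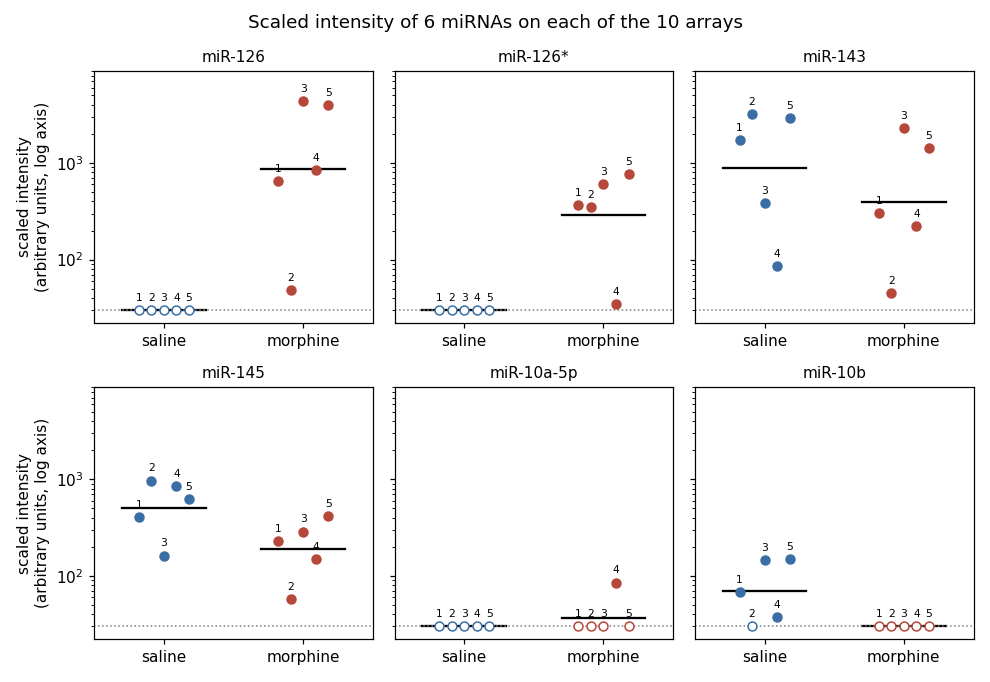
Scaled intensity (arbitrary units, log axis) of the 6 miRNAs on each array, with the replicate number above each point. Open points lie below 30 and are drawn at 30 (dotted line), and bars are the means of the log2 values drawn. miR-126 and miR-126* lie below 30 on all 5 saline arrays and above it on all 5 morphine arrays, whereas the groups overlap for miR-143 and miR-145.

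miR-143 and miR-145, the smooth muscle pair, did not pass the test. For rno-miR-143 (probe 13177), the scaled intensity was 1716, 3233, 386, 85.0 and 2921 on the saline arrays. On the morphine arrays it was 302, 45.3, 2318, 221 and 1414. Each group held arrays that differed by more than 30-fold, and the groups overlapped over nearly the whole range. The log2 fold change was -1.15 (SE 1.17, 95% interval -3.68 to 1.39, limma adjusted p = 0.475), an interval that holds a fall as well as a rise. It was -2.01 without saline replicate 4 and -0.33 without morphine replicate 2, and did not pass without any 1 array.

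rno-miR-145 (probe 42641) varied less within the groups. Its scaled intensity was 405, 969, 162, 847 and 620 on the saline arrays and 228, 58.0, 287, 150 and 417 on the morphine arrays. Saline replicate 3 lay among the morphine arrays, and the other 4 saline arrays were above 4 of the 5 morphine arrays. The log2 fold change was -1.43 (SE 0.638, 95% interval -2.81 to -0.05), with a limma adjusted p of 0.0876 and an exact permutation p of 0.0635 (two-sided, n = 5 against 5). It passed the test under 7 of 41 alternatives, among them quantile normalization (log2 fold change -2.46, adjusted p = 0.00425) and leaving out saline replicate 3 (-1.84, adjusted p = 0.0318), and was lower in the morphine group under all 41.

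The opposite arms of these hairpins were dim. rno-miR-143* was below 30 on all 10 arrays. rno-miR-145* was 53.3 to 254 on the saline arrays and 38.6 to 122 on the morphine arrays, with a log2 fold change of -0.02 (SE 0.529, limma adjusted p = 0.984).

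The spread of miR-143 on the saline arrays lay within each array as well as between rats. Each probe is printed in blocks 1 to 18 and again in blocks 19 to 36, with 2 spots in each copy, so that an array measures the same labelled RNA at 2 places. For rno-miR-143 the unscaled background-subtracted intensity at the first and the second copy was 82 and 3680 on saline replicate 1, a 44.9-fold difference. On saline replicate 2 it was 451 and 5617, on replicate 3 it was 107.5 and 673, and on replicate 5 it was 261.5 and 4774. The value of 261.5 is the mean of spots at 1336 and -813. Their local backgrounds were 877 and 1207, against an array median of 348. On saline replicate 4 the order was turned, with 270 at the first copy and -133.5 at the second. The second copy was thus brighter on 4 of the 5 saline arrays, by 6.26-fold or more.

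On the morphine arrays the copies of miR-143 lay closer together, at 1.14-fold to 3.75-fold. Over the 5 saline arrays the mean difference between copies, without regard to its sign, was 3.83 on the log2 scale, the highest of the 120 probes used for scaling, whose median was 0.66. Over the morphine arrays it was 0.82, which ranked 24th, against a median of 0.50. rno-miR-145 ranked 68th on the saline arrays and 40th on the morphine arrays. With the first copy alone the log2 fold change of rno-miR-143 was 1.06 (adjusted p = 0.376), and with the second alone it was -1.71 (adjusted p = 0.436), so that its direction rested on which spots were read. These readings were chosen after seeing the data.

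The copies of rno-miR-126 differed by 1.04-fold to 1.53-fold on morphine replicates 1, 2 and 5. On replicate 3 they were 1752 and 5439 (3.10-fold apart), and on replicate 4 they were 1796 and 206 (8.74-fold apart). Both copies were above 30 on every morphine array and below 0 on every saline array. The copies of rno-miR-126* differed by at most 1.36-fold.

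**Figure D2:**
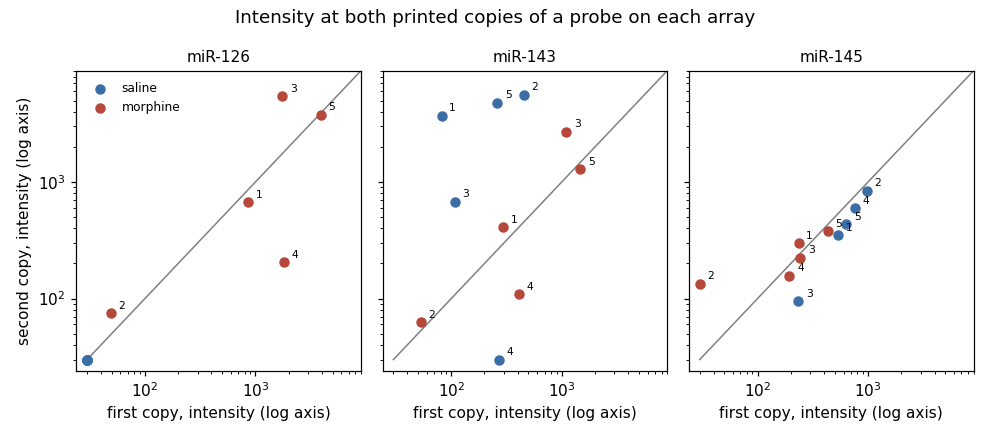
Background-subtracted, unscaled intensity at the first (x axis) and the second (y axis) printed copy of a probe, both on log axes with values below 30 drawn at 30, for miR-126, miR-143 and miR-145. Each point is an array with its replicate number, and the line marks equal copies. miR-143 lies far above the line on saline arrays 1, 2, 3 and 5, and the 5 saline points of miR-126 coincide at 30.

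The miR-10 pair was near the limit of measurement. rno-miR-10a-5p (probe 13485) reached 30 on no saline array and on 1 morphine array, and was not tested. Its scaled intensity was -15.7, -19.7, -39.0, -55.7 and -162 on the saline arrays and -37.5, -104, -35.6, 85.4 and 10.5 on the morphine arrays. The value of morphine replicate 4 is the mean of spots at 365, 40, -5 and 1 before scaling. Its opposite arm, rno-miR-10a-3p, was 23.7 to 278 on the saline arrays and 7.05 to 364 on the morphine arrays, with a log2 fold change of 0.15 (SE 0.867, limma adjusted p = 0.889).

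rno-miR-10b (probe 10925) reached 30 before scaling on 4 of the 5 saline arrays and on 1 of the 5 morphine arrays. Its scaled intensity was 67.7, -209, 147, 37.3 and 149 on the saline arrays. On the morphine arrays it was -18.4, -16.9, -12.3, 27.0 and -23.4, below each of the saline arrays but replicate 2. The log2 fold change was -1.22 (SE 0.521, 95% interval -2.34 to -0.09, limma adjusted p = 0.0754), so that it did not pass. rno-miR-10b* was below 30 on all 10 arrays.

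The low value of miR-10b on saline replicate 2 came from 1 spot. Its 4 spots there were 60, 71, 44 and -959 after background subtraction, and their foreground before subtraction was 230, 252, 222 and 262. The local background of the outlying spot was 1221, against 170 to 181 for the other 3. With the median of the spots in place of the mean, as in the deposited value table, the array was at 56.5 and the groups no longer overlapped, at 33.8 to 143 for saline and at most 28.4 for morphine. rno-miR-10b then passed as lower (log2 fold change -1.31, limma adjusted p = 0.038). With that setting 35 of 292 tested probes (12.0%) passed as lower, and 25 of the 292 (8.56%) had every morphine array below every saline array. Leaving out saline replicate 2 also made it pass (-1.53, adjusted p = 0.0369), and 12 of 41 alternatives did in all.

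Of the 6 miRNAs, 5 were tested, of which 2 rose, none fell and 3 did not pass, beside 32.6% of all tested probes that rose and 11.6% that fell. Both that rose had entered the test through the morphine group. The median log2 fold change of the 5 was -1.15, beside 0.45 over all tested probes. In the main setting 25 of the 301 probes (8.31%) had every morphine array below every saline array, and none of the 6 miRNAs was among them.

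**Figure D3:**
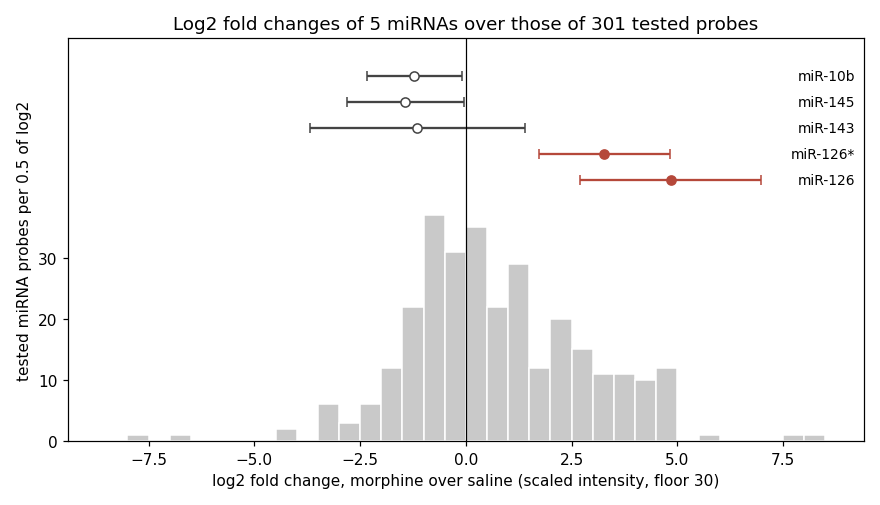
Log2 fold changes, morphine over saline, of the 5 tested miRNAs (points with 95% intervals from limma) above a histogram of the log2 fold changes of all 301 tested probes (y axis, probes per bin of 0.5). Filled points passed at an adjusted p under 0.05. miR-126 at 4.84 and miR-126* at 3.27 lie in the upper tail, and miR-143, miR-145 and miR-10b lie between -1.43 and -1.15.

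Differences between the miRNAs on the same array do not depend on the scaling, apart from the limit of 30. Since miR-126 was at that limit on all 5 saline arrays, each of its differences holds its own rise again and is no separate evidence of it, and its size moves with the limit. The brightness of different probes cannot be compared as a level, so that only the shift of a difference between the groups was tested, with two-sided exact permutation tests over 7 pairs and Benjamini-Hochberg adjustment. The log2 difference of miR-126 minus miR-143 was -6.75 to -1.50 on the saline arrays and 0.10 to 1.95 on the morphine arrays, a shift of 5.99. For miR-126 minus miR-145 the shift was 6.27, from a mean of -4.08 ± 1.04 to 2.19 ± 1.64 (SD, n = 5). In both pairs the groups did not overlap (exact p = 0.00794, the smallest that 5 arrays against 5 can give, adjusted p = 0.0139). With a floor of 100 in place of 30 the shifts were 4.28 and 4.58, and the adjusted p was 0.0556 for both. Against miR-10a-5p, which was at the limit on 9 of the 10 arrays, and miR-10b, which was at it on all 5 morphine arrays, the differences rest on the limit, and no test is drawn from them.

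A shift of the arms of miR-126 against each other could not be tested. The difference miR-126 minus miR-126* was at 0 on each saline array, since both arms were below 30 there. The shift therefore holds only the brightness of the probes on the morphine arrays. On the morphine arrays it ran from -2.85 on the array of replicate 2 to 4.62, and the shift was 1.57 (exact p = 0.206, adjusted p = 0.24). Without morphine replicate 2 the shift was 2.67 (adjusted p = 0.0139), and no conclusion on the arms is drawn from these p-values. For miR-143 minus miR-145 the shift was 0.28 (exact p = 0.865, adjusted p = 0.865), from 0.80 ± 2.33 on the saline arrays to 1.08 ± 1.32 on the morphine arrays (SD, n = 5). With the first printed copy alone it was 2.78 (adjusted p = 0.0111), and without saline replicate 4 it was -0.75 (adjusted p = 0.341). For miR-10a-5p minus miR-10b the shift was 1.52 (exact p = 0.0397, adjusted p = 0.0556). This shift also rests on the limit, and no test is drawn from it. miR-10a-5p was at the limit on every saline array and miR-10b on every morphine array.

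**Figure D4:**
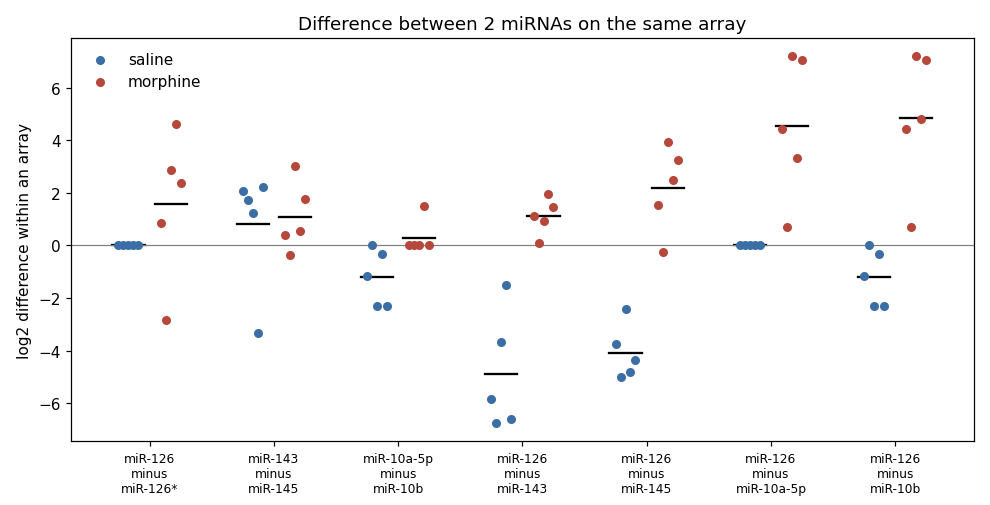
Log2 difference (y axis) between the miRNAs of each of the 7 pairs (x axis) on the same array, after raising values below 30 to 30. Points are arrays and bars are group means. The groups are apart for the 4 pairs of miR-126 with miR-143, miR-145, miR-10a-5p and miR-10b, in all of which miR-126 is drawn at 30 on every saline array, and overlap for the other 3.

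Few other miRNAs of endothelium and angiogenesis passed the test. Of 17 listed miRNAs besides the 6, 13 were tested, 1 rose, none fell and 12 did not pass, against 32.6% of all tested probes that rose and 11.6% that fell. The median log2 fold change of the 13 was -0.11, beside 0.45 over all tested probes. The miRNA that rose was rno-miR-322, a member of the miR-15 and miR-16 seed family. It reached 30 on no saline array and so entered the test through the morphine group. Its morphine values were 64.3 to 403, a rise of at least 5.41-fold (limma adjusted p = 0.002). rno-miR-130a, known in human endothelium for repressing antiangiogenic Hox genes, was 697 ± 503 in the saline and 1636 ± 1263 in the morphine group (SD, n = 5, log2 fold change 1.19, adjusted p = 0.184). The summed scaled intensity of the list was 7607 to 28919 on the saline arrays and 6139 to 22710 on the morphine arrays.

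The tested miRNAs of a list for smooth muscle, pericytes and connective tissue fell. miR-143 and miR-145 are outside that list and did not pass. Of 8 listed, 6 were tested, and 6 fell, against 11.6% of all tested probes, with a median log2 fold change of -2.98. Among them rno-miR-199a-3p reached 30 on no morphine array and entered the test through the saline group. rno-miR-199a-5p, encoded opposite an intron of a dynamin gene and known from fibroblasts and mesenchyme, was 3525 to 12198 on the saline arrays and at most 47.3 on the morphine arrays (log2 fold change -7.63, SE 0.479, adjusted p = 9.31e-08). rno-miR-21, a miRNA of fibroblasts and of injured tissue, was 1675 to 22788 and 6.60 to 119 (log2 fold change -6.95, SE 0.743, adjusted p = 1.42e-05). Of the muscle miRNAs listed, rno-miR-133b was 67.0 to 199 on the saline arrays and at most 66.4 on the morphine arrays. Its log2 fold change was -1.91 (SE 0.453, limma adjusted p = 0.00446). The muscle miRNAs rno-miR-1 and rno-miR-133a were not tested, with rno-miR-1 below 30 on all 10 arrays. Summed over the list, the scaled intensity was 11509 to 42557 on the saline arrays and 655 to 5173 on the morphine arrays. How much of the values of miR-143 and miR-145 came from the cells these miRNAs mark was not tested.

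miRNAs of blood and immune cells rose. Of the 6 on the array, 5 were tested and 5 rose, against 32.6% of all tested probes, and 4 of the 6 reached 30 on no array labelled saline. Those of the 4 that were tested entered the test through the morphine group. Their passing it adds nothing to their values. rno-miR-150, a miRNA of lymphocytes, rose by 4.90 on the log2 scale (SE 0.605, limma adjusted p = 3.81e-05). rno-miR-451, a miRNA of red blood cells, rose by 4.59 (SE 0.728, adjusted p = 0.000251), from a highest saline value of 65.5 to 146 to 2478 on the morphine arrays. The summed scaled intensity of the list was 28.3 to 221 on the saline arrays and 1421 to 8547 on the morphine arrays. miR-126 is itself present in platelets and other blood cells, and the part of blood in its values was not tested.

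The relatives of miR-10 in sequence did not pass the test in either direction. rno-miR-100 and rno-miR-99b have the seed ACCCGUA in RefSeq, which is not the seed of either miR-10. rno-miR-99a was 118 to 897 on the saline arrays and 58.6 to 1762 on the morphine arrays, a log2 fold change of 0.99 that did not pass (adjusted p = 0.42). rno-miR-100 had a log2 fold change of -1.04 (adjusted p = 0.433). Of the 4 other Hox cluster miRNAs, the miR-196 family and rno-miR-615, none reached 30 on enough arrays to be tested. rno-miR-196a reached it on 2 saline arrays and rno-miR-196c on 1 morphine array.

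The profile over the 10 arrays most like that of rno-miR-126 among 296 other tested probes was that of rno-miR-132*, at a mean absolute difference of 0.43 between the centred log2 profiles. rno-miR-153 followed at 0.45 and rno-miR-451 at 0.55, and the median over the 296 probes was 2.54. These 3 probes include a neuronal and a red blood cell miRNA from the lists above. The profile of rno-miR-143 was closest to those of rno-miR-100 (0.57), rno-miR-222 (0.94) and rno-let-7i (1.01), with a median of 2.06. That of rno-miR-10b was closest to rno-miR-344b-2-3p (0.32), rno-miR-3556a (0.34) and rno-miR-344b-1-3p (0.40), with a median of 1.27. These differences are descriptions over 10 arrays that share the difference between the groups.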

How the data were processed

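Total RNA of each rat carried the Hy3 dye on miRCURY LNA arrays of version 18. The authors extracted the scans with GenePix software and deposited foreground and background-subtracted intensity per spot, on a linear scale and with no scaling between arrays. A deposited value table held the median of each probe's spots. The sources used here give no slide, scan date or probe sequence, and batches could not be examined.

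Arrays were scaled as described above, a floor of 30 was set before log2, and the moderated two-sided test of limma 3.58.1 (R 4.3.3) was run with Benjamini-Hochberg adjustment. The fit was tested on simulated normal values with an equal spread in both groups and no floor. That setting does not cover probes at the floor in a whole group, such as rno-miR-126. Differences within arrays used exact permutation tests in R. Sequences and figures were made in Python 3.11.15 and matplotlib 3.10.9. The miRNAs and lists were chosen with earlier results of these data known. Named were the 6 miRNAs and their opposite arms, from each list the 2 tested members with the smallest p, and for rno-miR-126, rno-miR-143 and rno-miR-10b the 3 probes most alike. rno-miR-1, rno-miR-133a, rno-miR-133b, rno-miR-196a, rno-miR-196c, rno-miR-615, rno-miR-9*, rno-miR-124, rno-miR-138 and rno-miR-199a-3p were named after their values were seen. Nothing in the sources ties a replicate number to a shared litter or day. After each probe's group mean was subtracted, same-numbered arrays correlated at -0.40 to 0.05, so arrays were not paired. No arrays were identical. The number of arrays limits the precision.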

Additional observations from a re-analysis of the deposited data

Results flagged for a closer look

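In 4 of 24 groups of 5 arrays examined, 1 array lay far from the others by Dixon's criterion. Its rate of about 1 in 20 by chance holds for independent normal values. These groups share arrays and miRNAs, and some hold floored values, so that 4 of 24 is not read as an excess. For rno-miR-10a-5p, saline replicate 5 was at -162, against -55.7 for the nearest saline array, and both are below what the array can measure. For rno-miR-10b, morphine replicate 4 was at 27.0, against -12.3 for the nearest morphine array. For the log2 difference of miR-143 minus miR-145, saline replicate 4 was at -3.32, against 1.25 for the nearest. On that array the copies of the miR-143 probe were at 270 and -133.5. For the log2 difference of miR-10a-5p minus miR-10b, morphine replicate 4 was at 1.51, against 0 for the nearest, where both miRNAs were at the floor.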

How the results depend on the processing

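Over 41 alternatives rno-miR-126 stayed higher in the morphine group in 41, at log2 fold changes of 3.04 to 6.43, and rno-miR-126* in 41, at 1.84 to 4.86. They passed the test in 34 and 33. With a filter of 30 on all arrays they kept their values of 4.84 and 3.27 but could not be tested (120 probes, of which 19 rose and 14 fell), nor, since 5 arrays at 30 were asked, without any morphine array. With the tested probes kept, a choice made after seeing the data, both passed without each of the 10 arrays, at adjusted p up to 0.00593 and 0.00981. In the main setting both arms had entered the test through the morphine group, and the kept probes hold them for that reason. Neither these passes nor the counts of 34 and 33 are separate evidence of the rise.

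Foreground without background subtraction gave -1.04 for rno-miR-145 (adjusted p = 0.0236), -1.44 for rno-miR-10b (0.000163), -0.59 for rno-miR-10a-5p, -0.0059 for miR-143 minus miR-145, 0.85 for miR-10a-5p minus miR-10b (0.0111) and 118 probes that fell. A negative-control baseline gave -1.68, -2.22 and -0.61 for the same 3 miRNAs and 81 probes that fell. The median of the spots gave -1.31 for rno-miR-10b and 1.31 for miR-10a-5p minus miR-10b. Quantile normalization gave -2.46 for rno-miR-145 and -1.86 for rno-miR-10b. Cyclic loess gave 1.84 for rno-miR-126*, -2.53 for rno-miR-145, -0.55 for rno-miR-10a-5p, -1.60 for rno-miR-10b, 56 probes that rose and 56 that fell. Scaling over the probes detected on each array, or over all probes, left 22 that fell, and over spike-in probes gave -1.71 for rno-miR-145. A floor of 10 gave -2.20 for rno-miR-10b and 2.83 for miR-10a-5p minus miR-10b. A floor of 100 gave 4.28, 4.58, 3.31 and 3.54 for miR-126 minus miR-143, miR-145, miR-10a-5p and miR-10b, all of which hold the rise of miR-126 from the floor. limma with trend and robust options gave -1.22 for rno-miR-10b (adjusted p = 0.0479).

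The methods' t-test gave a log2 ratio of means of 6.05 for rno-miR-126 and 3.82 for rno-miR-126*, with 17 probes that rose and 8 that fell after Benjamini-Hochberg. With the first printed copy alone the values were 1.06 for rno-miR-143, -1.71 for rno-miR-10b, 2.78 for miR-143 minus miR-145 and 2.15 for miR-10a-5p minus miR-10b. With the second alone, miR-143 minus miR-145 was -0.72 and 17 probes fell. An array-wide background gave -1.36 for rno-miR-10b and 1.64 for miR-10a-5p minus miR-10b. These last 3 were added after seeing the data. Apart from the alternatives whose construction shows it (fewer probes or arrays, the median of the spots), the cause of each change was not tested.

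Leaving out each array gave 4.29 to 5.86 for rno-miR-126, 2.93 to 4.03 for rno-miR-126*, -2.01 to -0.33 for rno-miR-143 (without saline replicate 4 and without morphine replicate 2, not passing in either), -1.84 to -0.96 for rno-miR-145, -1.53 to -0.95 for rno-miR-10b, 0.81 to 2.67 for miR-126 minus miR-126*, -0.75 to 0.64 for miR-143 minus miR-145 (below 0 without saline replicate 4, and at -0.21 without morphine replicate 3), 1.18 to 1.84 for miR-10a-5p minus miR-10b (adjusted p = 0.0185 without saline replicate 2), 38 to 103 probes that rose and 19 to 36 that fell. rno-miR-10b also passed without saline replicate 4 when the tested probes were kept (-1.48, adjusted p = 0.0453). Since the replicate numbers do not pair the arrays, the replicate block is given once: the shifts of 5.99, 6.27, 4.54 and 6.06 for miR-126 minus miR-143, miR-145, miR-10a-5p and miR-10b had an exact p of 0.0625, the smallest that 5 pairs can give (adjusted p = 0.109), and the block changed no call of the 6 miRNAs. Values near 30, such as those of both miR-10 miRNAs, are within the reach of the local background. The differences of miR-10a-5p minus miR-10b with an array left out rest on the limit of 30, and no test is drawn from them.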
